A study of Mus musculus with 1104 samples.

Results

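The genes of the mitochondrial respiratory chain and the ATP synthase were followed in 13 organs of mice given a high-fat diet. The members were all rows of the count table whose symbol begins with Nduf and a subunit letter, is Sdha, Sdhb, Sdhc or Sdhd, begins with Uqcr, with Cox and a digit from 4 to 8 or with Atp5, or carries the prefix of the mitochondrial genome. This gave 98 of 20646 genes: 85 nuclear genes (36 of complex I, 4 of complex II, 8 of complex III, 20 of complex IV and 17 of complex V) and the 13 mRNAs of mitochondrial DNA.

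Male wild type C57BL/6 mice received a diet with 60 kcal% fat from 8 weeks of age until dissection. Poly(A)-selected RNA of epididymal white fat (eWAT), inguinal white fat (iWAT), interscapular brown fat (BAT), pancreas, liver, small intestine, the soleus and gastrocnemius muscles, hippocampus, neocortex, olfactory bulb, hypothalamus and the pituitary gland was sequenced in 6 mice per time point, in 1104 libraries. The 14 time points were the start of the diet (0d), 1 and 3 days, 1 week, 10 days, and 2, 3, 4, 5, 6, 7, 8, 10 and 12 weeks, with 16 and 20 weeks in eWAT as well. All groups after 0d were on the diet, so time on the diet, age and day of dissection cannot be told apart, and all comparisons in an organ share its 0d libraries. Each was a bulk sample, in which fewer cells of a type and less RNA per cell cannot be told apart.

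Complex I (NADH dehydrogenase) and complex II (succinate dehydrogenase, also an enzyme of the citrate cycle) pass electrons to ubiquinone, complex III passes them on to cytochrome c, and complex IV (cytochrome c oxidase) passes them to oxygen. Complexes I, III and IV pump protons, and the ATP synthase, complex V, makes ATP as the protons return. Complex II is encoded in the nucleus alone; the other complexes need subunits of both genomes. Brown fat and oxidative muscle are rich in mitochondria, and brown fat can let the protons return through Ucp1 to make heat. Several complex IV subunits exist as a common form and a form of heart and skeletal muscle, such as Cox6a1 and Cox6a2, Cox7a2 and Cox7a1, and Cox8a and Cox8b.

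Library totals lay between 7670532 and 27036098 counts, with a median of 13464321. Many members have short transcripts (median length 645 bases), and in 44 libraries of 6 organs the nuclear members stood at least 1 log2 unit above the organ's median 0d library, by the median over members. There were 18 such libraries in soleus, 9 each in gastrocnemius and iWAT, 4 in BAT, 3 in eWAT and 1 in pancreas; none of the 1104 stood as far below. The class of genes with transcripts under 1 kb also stood above the median 0d library there, but to differing degrees. Its lowest median in such a library was 0.133 in iWAT, 0.531 in gastrocnemius, 0.557 in BAT and 0.744 in soleus. Across the libraries of an organ, the 2 medians had a Pearson correlation of 0.998 in soleus, 0.996 in gastrocnemius and 0.982 in BAT. It was 0.953 in iWAT, 0.949 in pancreas and 0.873 in eWAT. In organs without such libraries it ran from 0.667 in small intestine and 0.723 in liver to 0.947 in hippocampus. These points share libraries and all members under 1 kb, so the correlation is a description. Whether RNA quality or library preparation set these levels was not tested.

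**Figure D1:**
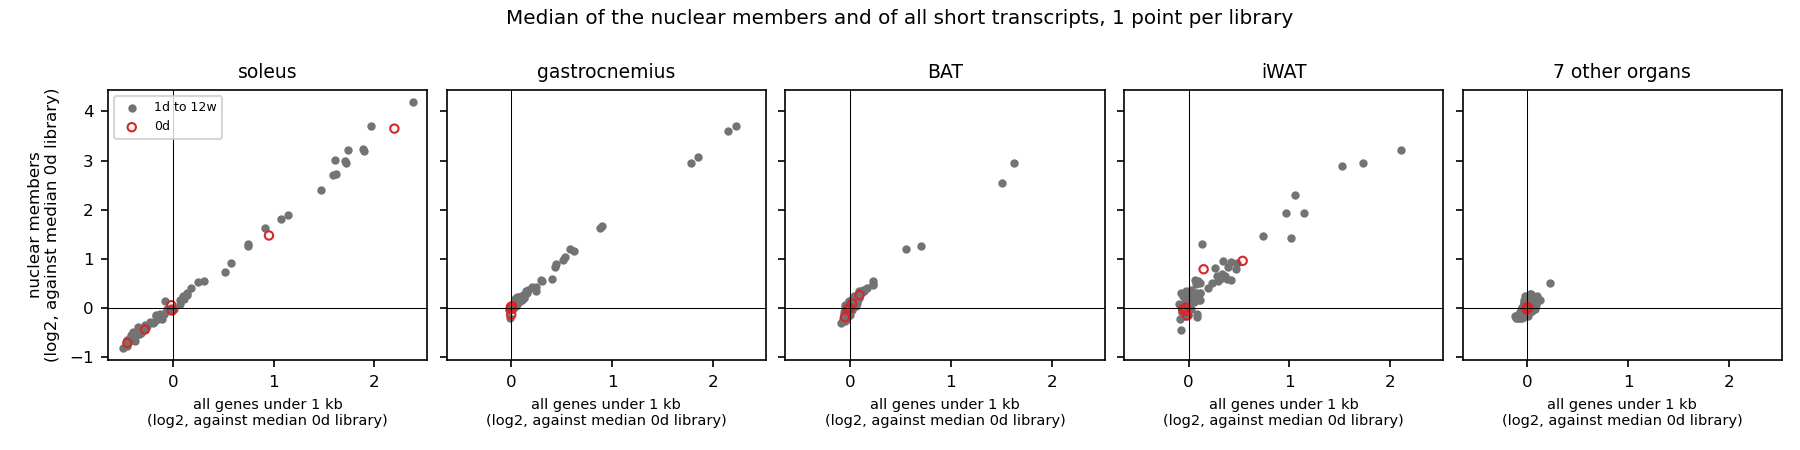
Each point is 1 library. The x axis is the median log2 CPM (counts scaled by library size) of all tested genes with transcripts under 1 kb, the y axis that of the nuclear members, both relative to the organ's median 0d library; in soleus, gastrocnemius, BAT and iWAT some libraries reach from 2.95 to 4.19 on the y axis, while no library in the panel of 7 other organs reaches 1.

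The mitochondrial mRNAs have their own limit. A stretch of nuclear DNA on chromosome 1 of GRCm38 holds nearly identical copies of mt-Atp6, mt-Co2, mt-Co3, mt-Nd3 and mt-Nd4l; the copy of mt-Co2, annotated as the pseudogene Gm28661, lies at chr1:24614885-24615565 and is identical over 681 bases. Reads of these genes can match both places, so their values, and those of mt-Atp8, which lies between 2 of them, are uncertain. Medians of mitochondrial mRNAs below are over the 7 others: mt-Nd1, mt-Nd2, mt-Nd4, mt-Nd5 and mt-Nd6 of complex I, mt-Cytb of complex III and mt-Co1 of complex IV. Of these 7, mt-Nd4 (876 bases) and mt-Co1 (483 bases) have a nearly identical copy of part of their length on the same stretch, so their values and the medians are not free of this limit. Among the nuclear members, 18 share exonic bases with another gene of the table, in all 18 cases on the opposite strand; whether the counting used the strand is not given in the sources used here.

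Before the diet, the subunit genes were most abundant in brown fat and muscle. Medians per kb of transcript were taken over the nuclear members other than the tissue-restricted forms (Cox4i2, Cox6a2, Cox6b2, Cox7a1, Cox7b2, Cox8b, Cox8c and Ndufa4l2). The median was 534.1 CPM per kb in BAT (473.7 to 609.1 over the 6 libraries at 0d), 496.3 in soleus (338.0 to 1652) and 235.9 in gastrocnemius. It was 166.4 in small intestine, 163.8 in eWAT, 144.1 in iWAT and 130.5 in liver. The brain followed with 112.6 CPM per kb in hippocampus, 105.6 in hypothalamus, 103.3 in olfactory bulb and 94.1 in neocortex, and the lowest medians were 70.5 in pituitary and 31.3 in pancreas. BAT and soleus overlapped, since the soleus range was wide. The share of all counts in the 13 mitochondrial mRNAs had a similar order, from a median of 19.7% in BAT, 15.2% in soleus and 9.25% in gastrocnemius to 1.76% in pituitary and 0.970% in pancreas.

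The tissue-restricted subunits of complex IV marked the organs. At 0d Cox6a2 had a median of 708.0 CPM per kb in gastrocnemius, where its common counterpart Cox6a1 had 22.4, whereas in BAT Cox6a1 had 1958 and Cox6a2 1.49. BAT nevertheless held the other muscle-type subunits: Cox7a1 had 1018 CPM per kb against 519.7 for Cox7a2, and Cox8b 2336 against 1705 for Cox8a. In gastrocnemius the corresponding values were 329.2 for Cox7a1 against 115.0 for Cox7a2, and 510.0 for Cox8b against 29.5 for Cox8a. Small intestine also had Cox7a1, at 109.3 CPM per kb against 193.1 for Cox7a2. In the 6 liver libraries Cox8b was at 0.

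The upstream sequences of 5 of these paired genes are shown because the members of a pair differed so much between organs; Cox6a2 is named only. They are the 250 bases before the RefSeq transcription start (GRCm38.p6), 5′ to 3′ along the gene. Capitals mark matches to binding motifs on either strand. The motifs are those of NRF1 (GCGCA, any base, then GCGC), of ETS factors such as GABPA (CCGGAAG), and the CCAAT box (CCAAT).
Cox6a1, chr5:115348959-115349208, minus strand: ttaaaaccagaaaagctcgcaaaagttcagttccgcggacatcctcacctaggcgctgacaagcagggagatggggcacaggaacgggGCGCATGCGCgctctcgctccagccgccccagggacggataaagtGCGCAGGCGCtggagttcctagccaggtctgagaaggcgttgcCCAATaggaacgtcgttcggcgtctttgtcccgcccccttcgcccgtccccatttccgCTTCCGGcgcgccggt
Cox7a2, chr9:79759854-79760103, minus strand: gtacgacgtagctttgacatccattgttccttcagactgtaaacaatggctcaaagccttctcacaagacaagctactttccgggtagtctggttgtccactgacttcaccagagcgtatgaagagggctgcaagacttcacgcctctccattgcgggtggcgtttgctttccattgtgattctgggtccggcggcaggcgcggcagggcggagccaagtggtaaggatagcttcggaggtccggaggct
Cox7a1, chr7:30183921-30184170, plus strand: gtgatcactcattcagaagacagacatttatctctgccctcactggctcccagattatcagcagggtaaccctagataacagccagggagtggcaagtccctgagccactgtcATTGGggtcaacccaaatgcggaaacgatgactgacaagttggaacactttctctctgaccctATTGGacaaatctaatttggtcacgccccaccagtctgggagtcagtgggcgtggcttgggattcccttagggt
Cox8a, chr19:7217617-7217866, minus strand: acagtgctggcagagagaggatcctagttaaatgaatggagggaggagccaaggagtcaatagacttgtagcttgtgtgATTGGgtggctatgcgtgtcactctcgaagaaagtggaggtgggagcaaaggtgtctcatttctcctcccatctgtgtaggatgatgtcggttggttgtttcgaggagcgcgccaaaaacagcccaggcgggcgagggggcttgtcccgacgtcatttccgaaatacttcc
Cox8b, chr7:140900447-140900696, minus strand: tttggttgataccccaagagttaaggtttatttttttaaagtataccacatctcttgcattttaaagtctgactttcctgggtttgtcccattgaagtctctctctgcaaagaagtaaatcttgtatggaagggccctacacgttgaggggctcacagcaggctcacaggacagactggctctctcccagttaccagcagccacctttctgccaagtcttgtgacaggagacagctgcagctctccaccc
Cox6a1, the common form, held 2 NRF1 motifs, 1 ETS motif and 1 CCAAT box; Cox7a1 held 2 CCAAT boxes, Cox8a 1, and Cox7a2 and Cox8b no match in this window. Over the 68 members with a promoter in the table, 13 (19.1%) held an NRF1 motif, against 4.23% of 27025 genes. The ETS motif was found in 17.6% of the members and 7.83% of genes, the CCAAT box in 44.1% and 37.5%, the motif of the estrogen-related receptors (AAGGTCA) in 7.35% and 4.7%, that of YY1 in 1.47% and 0.359%, and that of MEF2 in 1.47% and 3.7%. A match is a run of letters and not a measured site.

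On the diet, the balance between the forms moved in BAT. Cox7a1 made up 67.5% ± 2.16 (SD, n = 6) of the summed CPM of Cox7a1 and Cox7a2 at 0d and 75.3% ± 1.00 at 12 weeks (exact permutation test, two-sided, adjusted p = 0.0145 over 47 shares). Cox8b rose from 59.5% ± 3.62 to 64.7% ± 0.789 of the Cox8 pair (exact permutation test, adjusted p = 0.0226). In small intestine the Cox7a1 share rose from 35.2% ± 4.30 to 42.1% ± 1.22 (exact permutation test, adjusted p = 0.0226). It fell in soleus, from 78.8% ± 0.833 to 75.6% ± 0.713 (exact permutation test, adjusted p = 0.0145), and in gastrocnemius it was 74.4% and 73.3% (exact permutation test, adjusted p = 0.304). In eWAT the Cox8b share of the Cox8 pair rose from 1.88% ± 0.253 to 3.30% ± 0.634 (exact permutation test, adjusted p = 0.0145). These tests were added after the levels at 0d had been seen, and the smallest unadjusted p that 6 against 6 libraries can give is 0.00216. By edgeR, Cox7a1 (log2 change 0.32, adjusted p = 0.545) and Cox8b (0.08, adjusted p = 0.911) were not called in BAT at 12 weeks. Nor was Cox8b in eWAT (0.02, adjusted p = 0.974, edgeR). Cox7a1 (393 bases) and Cox8b (360) have shorter transcripts than Cox7a2 (659) and Cox8a (550), and the part of transcript length in these shares was not tested.

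**Figure D2:**
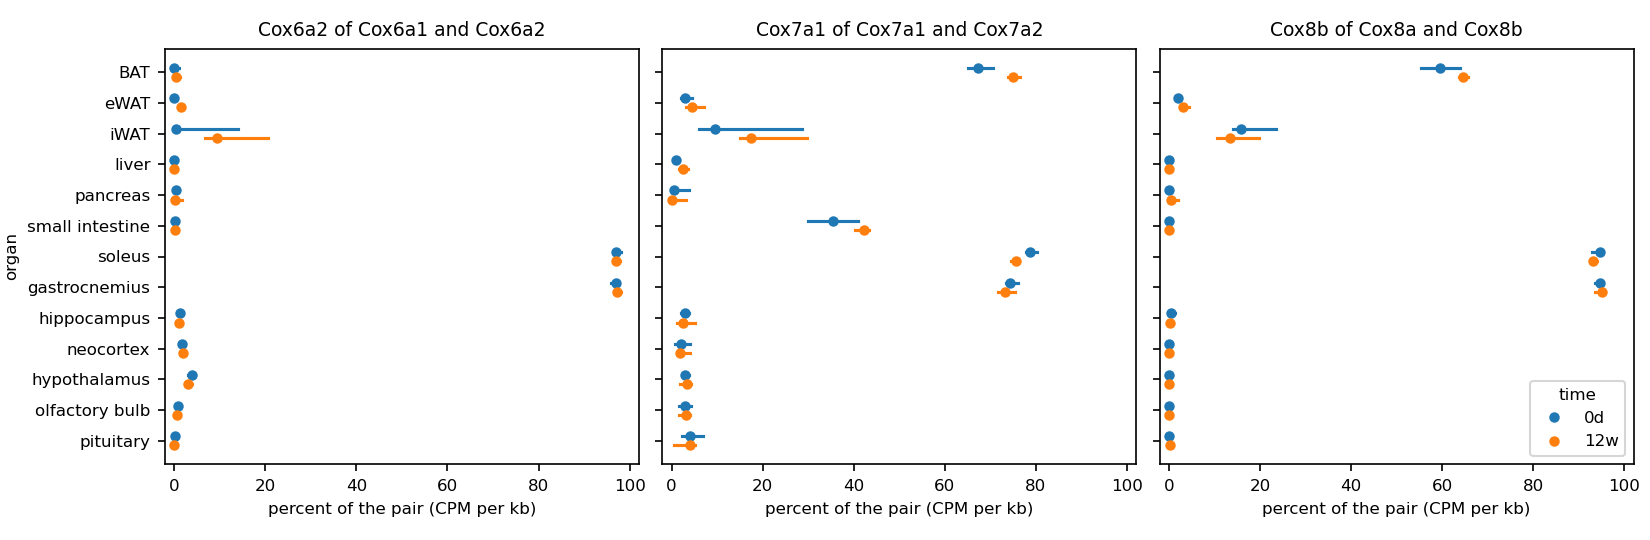
Share (percent) of Cox6a2, Cox7a1 and Cox8b in the summed level of each subunit pair, by organ, at 0d and 12 weeks; points are medians and lines the range over 6 libraries. The 12-week Cox7a1 share lies above the 0d share in BAT and small intestine and below it in soleus.

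The course of the members over the diet differed by organ. In eWAT the nuclear members and the mitochondrial mRNAs were low together from 4 weeks on, in hippocampus the nuclear members were low at 10 and 12 weeks, and in neocortex the nuclear members were low from the first day. The median change of the nuclear members in small intestine was above 0 at 13 of 13 time points, while the median of the 7 mitochondrial mRNAs was below 0 at 12 of them. In the muscles, the nuclear medians ranged from -1.93 to 0.74 in soleus and from 0.14 to 2.12 in gastrocnemius; with an offset for transcript length in the fit these ranges were -0.52 to 0.47 and 0.02 to 0.71.

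**Figure D3:**
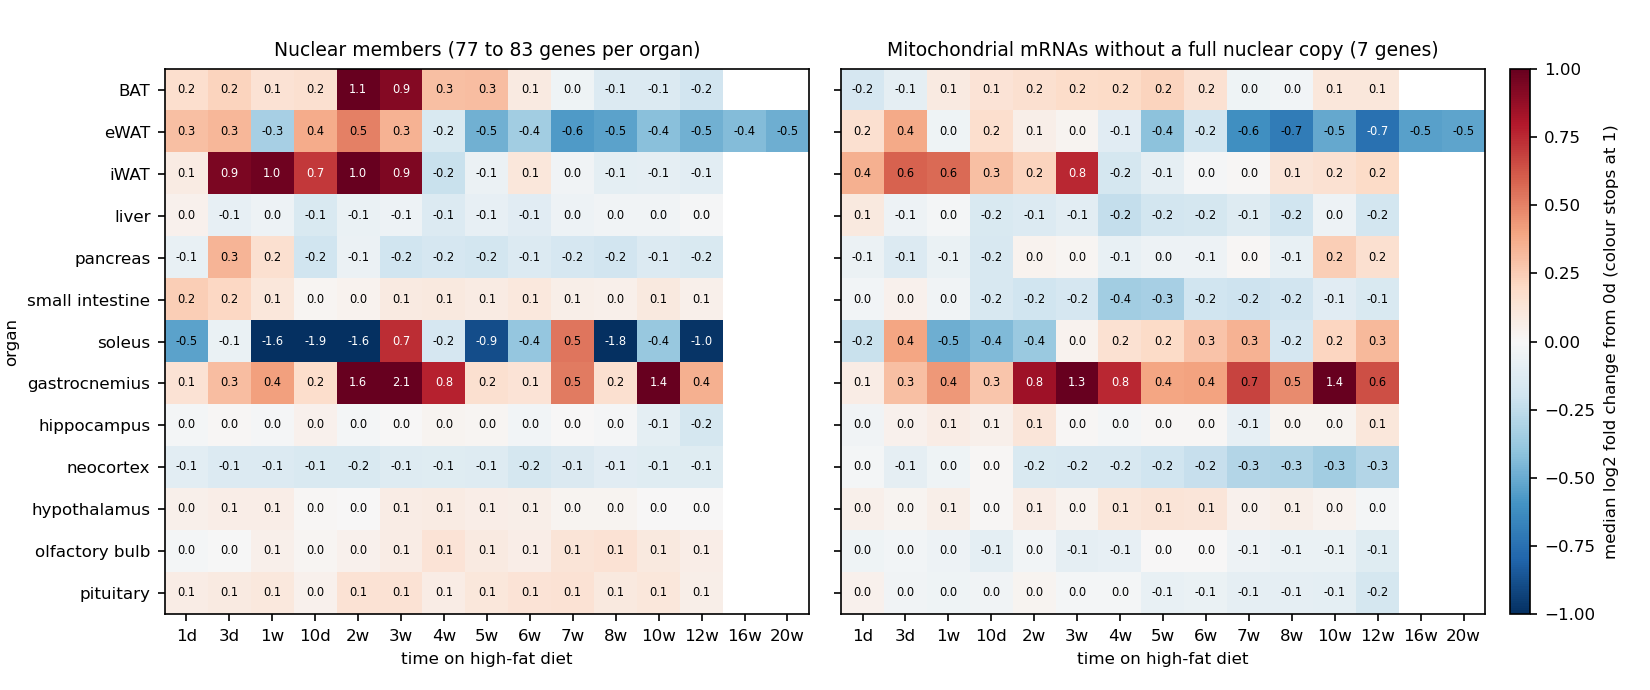
Median log2 change from 0d of the nuclear members (one panel) and of the 7 mitochondrial mRNAs without a full nuclear copy (the other), by organ and time point; colour gives the median and the number in each cell repeats it. In eWAT both panels are negative from 4 weeks on, and at 12 weeks they hold -0.48 and -0.75.

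At 12 weeks 37 of 83 tested nuclear members had fallen in eWAT and 1, Cox6a2, had risen (edgeR quasi-likelihood test, Benjamini-Hochberg adjusted over all genes tested). Of all 15225 genes tested there, 29.3% fell and 31.0% rose. The nuclear median was -0.48 and that of the 7 mitochondrial mRNAs -0.75, beside -0.00 for all genes. All complexes took part: 14 of 36 tested members of complex I fell, 3 of 4 of complex II, 5 of 8 of complex III, 8 of 18 of complex IV and 7 of 17 of complex V. At 20 weeks the counts were again 37 and 1 (29.8% and 31.0% of all genes), and over all time points together 83 of 83 tested nuclear members changed, against 90.8% of all genes.

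Sdha, the flavoprotein of succinate dehydrogenase, showed the course with little spread. Its 6 libraries at 0d lay at 424.5 to 590.4 CPM (median 467.8), at 3 days at 610.0 to 875.2 (median 666.2) and at 12 weeks at 282.6 to 316.3 (median 307.0). The 3-day libraries were all above and the 12-week libraries all below those at 0d, with log2 changes of 0.56 (adjusted p = 6.49e-07, edgeR) and -0.66 (SE 0.09, adjusted p = 1.65e-09, edgeR). At 1 week the range was 456.4 to 495.7 CPM, within that at 0d, and from 7 weeks to 20 weeks no library exceeded 377.6 CPM. Among the other subunits of complex II, Sdhc fell by 0.47 with overlapping groups (adjusted p = 0.0171, edgeR), and Sdhd had -0.26 (adjusted p = 0.255).

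The lowest changes among nuclear members with a mean of at least 5 CPM were those of Ndufa4l2, counted here with complex IV, and of Ndufb8 and Ndufb9 of complex I. Ndufb8, a membrane-arm subunit, went from 92.9 to 168.2 CPM at 0d (median 119.6) to 57.8 to 66.95 at 12 weeks (median 61.6), a log2 change of -0.98 (SE 0.24, adjusted p = 0.000204, edgeR). The groups did not overlap, and neither did those of Ndufb9, which had 52.6 to 112.5 CPM at 0d and 32.99 to 41.8 at 12 weeks. A transcript of Gm49356 is identical to Ndufb9 over 202 bases, so the value of Ndufb9 is uncertain. Ndufa4l2, a relative of the complex IV subunit Ndufa4 that is known to be induced by hypoxia, went from 10.5 to 18.8 CPM to 6.37 to 7.99 (log2 change -1.02, adjusted p = 1.1e-06, edgeR) and stood at -1.19 at 16 weeks and -1.16 at 20 weeks. The catalytic core subunit Ndufv1 fell by 0.76.

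Complexes III, IV and V had the same direction. The core protein Uqcrc1 fell by 0.65 and the Rieske iron-sulfur protein Uqcrfs1 by 0.75. Cox4i1, a subunit of complex IV, went from 403.4 to 814.2 CPM at 0d (median 536.9) to 301.4 to 372.4 at 12 weeks (median 324.1) without overlap, a log2 change of -0.76 (adjusted p = 0.00366, edgeR). Its lung-type form Cox4i2 fell by 1.39, from a median of 4.30 to 1.86 CPM, so that its share of the Cox4 pair went from 0.828% to 0.544% (exact permutation test, adjusted p = 0.0145). Atp5b, the catalytic beta subunit of the ATP synthase, fell by 0.61. Atp5mpl, Ndufb3 and Cox8b had the highest changes by the same measure, 0.08, 0.06 and 0.02, and did not pass the edgeR test.

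**Figure D4:**
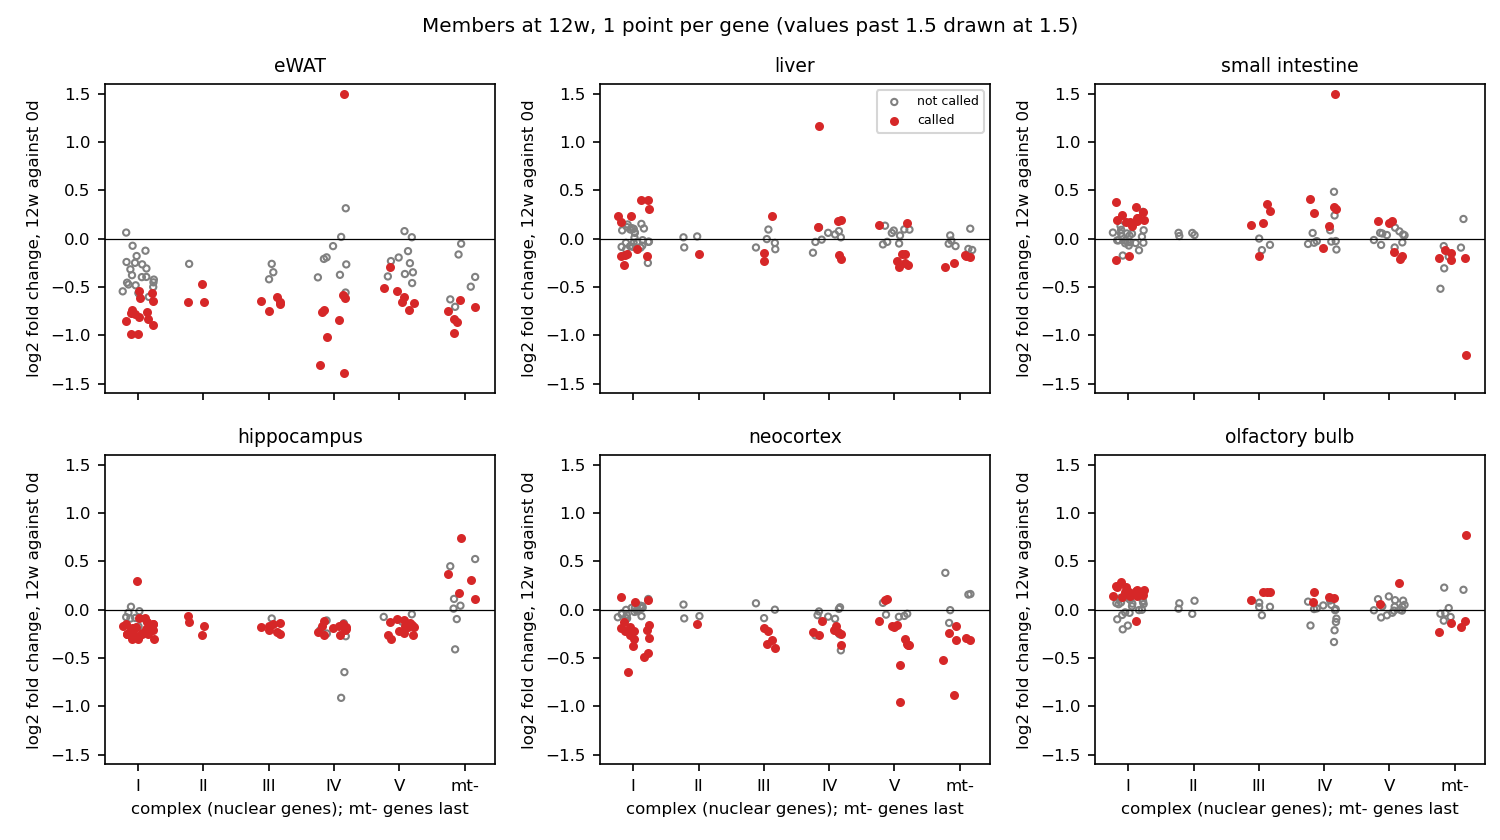
Log2 change from 0d to 12 weeks of each tested member, grouped by complex and, for the mitochondrial mRNAs, by genome, in eWAT, liver, small intestine, hippocampus, neocortex and olfactory bulb; values past 1.5 are drawn at 1.5. In eWAT and hippocampus most points of every complex lie below 0, while in small intestine and olfactory bulb most nuclear points lie above it.

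The mitochondrial genes of eWAT fell as well. mt-Cytb, the cytochrome b of complex III, had 6915 to 9952 CPM at 0d (median 7524) and 3662 to 4459 at 12 weeks (median 3980), a log2 change of -0.97 (SE 0.18, adjusted p = 3.74e-06, edgeR). mt-Co1, the core subunit of complex IV, went from 13690 to 20720 CPM to 9145 to 11480 (log2 change -0.71, adjusted p = 8.5e-05, edgeR), also without overlap. mt-Nd6, mt-Nd4, mt-Nd5 and mt-Nd1 fell by 0.87, 0.83, 0.75 and 0.63, while mt-Nd2 had -0.16 (adjusted p = 0.419, edgeR). Together the 13 mRNAs took a median of 4.4% of all counts at 0d and 2.64% at 12 weeks, and the nuclear members 1.35% and 0.898%.

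**Figure D5:**
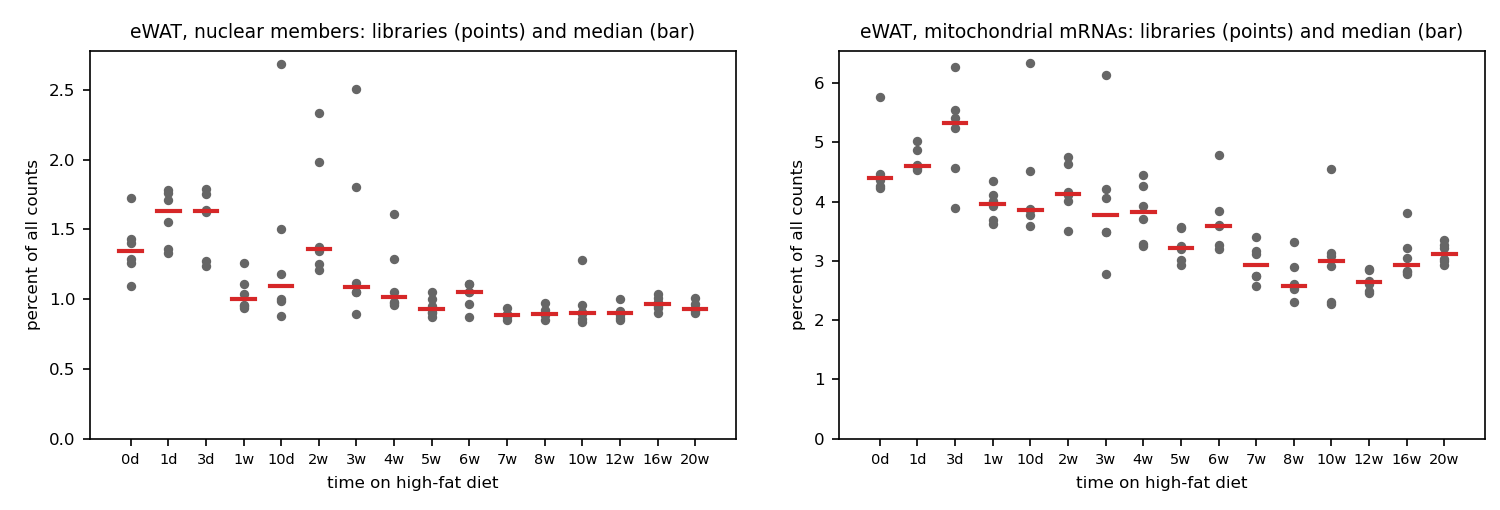
Percent of all counts of a library in the nuclear members and in the 13 mitochondrial mRNAs in eWAT, by time on the diet; points are libraries. The mitochondrial share at 12 weeks runs from 2.46% to 2.86%, below the lowest 0d library at 4.23%.

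The first weeks had calls in the other direction. In eWAT 15 nuclear members rose and 1 fell at 3 days (21.3% and 16.7% of all genes), and 30 rose and 1 fell at 2 weeks (22.2% and 17.1%); without the 1 library per time point that correlated least with its group (replicate 5 at 2 weeks and replicate 1 at 0d among them) 8 rose at 2 weeks, and at 3 days 17 rose. At 1 week none rose and 5 fell (20.1% and 16.3%). At 7 weeks 45 fell and 1 rose (25.7% and 27.8%), and at 8 weeks 41 fell and 1 rose (27.3% and 29.0%).

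The counts of other mitochondrial genes and of tissue markers stand beside 29.3% of all genes that fell and 31.0% that rose. Of the citrate cycle list 12 of 16 fell and 2 rose, with Suclg2, a succinyl-CoA ligase subunit, at -1.39 and Dlst at -0.46. Of the mitochondrial ribosome 22 of 77 fell and 2 rose, of the assembly factors 14 of 45 fell and 4 rose, among them Ecsit at -0.80 and Acad9 at 0.48, and of the cytosolic ribosome 1 of 78 fell and 1 rose. The coactivator Ppargc1a, which drives mitochondrial biogenesis, had 5.90 to 14.9 CPM at 0d and 1.71 to 3.93 at 12 weeks (log2 change -1.97, adjusted p = 5.39e-09, edgeR). Ppara fell by 0.97, Tfam, which packages mitochondrial DNA, by 0.29, and Perm1, a coregulator of muscle, rose by 3.08. Of the adipocyte markers 9 of 11 fell and 1 rose (summed level 31620 to 45950 CPM at 0d and 13460 to 22130 at 12 weeks), and 8 of 9 macrophage markers rose (984.0 to 1433 and 4269 to 8852 CPM); the part of this shift in the members' values was not tested.

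Cox6a2, the muscle form of a complex IV subunit, was the member that rose in eWAT. It had 12 reads in the 6 libraries at 0d (0 to 7 in a library) and 263 at 12 weeks (32 to 62), a log2 change of 4.74 (SE 1.15, adjusted p = 0.000243, edgeR), and the groups did not overlap. It was also called at 7, 8, 10, 16 and 20 weeks. Cox6a2 lies at chr7:128205435-128206387 on the minus strand, inside the span of Itgad on the plus strand (chr7:128154376-128223816), with 70 exonic bases in common. Itgad, an integrin alpha chain of macrophages, had 11 reads at 0d and 42.61 to 80.04 CPM at 12 weeks (log2 change 9.02, adjusted p = 2.77e-18, edgeR). Ckm, the creatine kinase of muscle, did not exceed 0.311 CPM in the 12-week libraries, and the summed muscle markers were 37.3 to 50.6 CPM at 0d and 36.2 to 57.0 at 12 weeks. Whether reads of Itgad were counted for Cox6a2 was not tested. The calls of Cox6a2 at 3 and 10 days stood beside muscle RNA: at 3 days the highest library had 65.7 CPM of Cox6a2 and the highest Ckm was 4217 CPM.

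Few members were called in the other fat depots. In iWAT at 12 weeks 1 nuclear member rose and 1 fell of 83 (21.5% and 23.1% of 14704 genes), and the nuclear median was -0.10. Library totals in place of TMM scaling lowered the median of all genes by 0.20 there and gave 1 higher and 5 lower. Ndufa4l2 rose from 4.90 to 7.08 CPM at 0d to 10.7 to 14.7 at 12 weeks (log2 change 1.17, SE 0.34, adjusted p = 0.00345, edgeR), without overlap and opposite to eWAT. Cox6b2, the testis form of a complex IV subunit, fell from 1.33 to 2.69 CPM to 0.402 to 1.16 (adjusted p = 0.00194, edgeR). Cox6a2 had 0.777 to 65.9 CPM at 0d and 20.2 to 62.6 at 12 weeks (log2 change 1.16, adjusted p = 0.425), beside skeletal muscle markers whose sum ran from 27.1 to 34740 CPM at 0d and from 7414 to 33450 at 12 weeks. The 7 T and B cell markers all fell (435.0 to 1372 and 5.58 to 18.5 CPM), and 23 of 79 genes of the cytosolic ribosome fell with them. At 1 week 20 nuclear members were higher in iWAT and none lower (8.25% and 3.77% of all genes), and none was higher without replicate 6 of 1 week and the other least correlated libraries.

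In BAT 2 nuclear members rose and 1 fell of 83 at 12 weeks (14.4% and 13.2% of 13196 genes), with a nuclear median of -0.19. Atp5b, among the most abundant members, had 5501 to 6571 CPM at 0d and 6728 to 7652 at 12 weeks (log2 change 0.27, adjusted p = 0.0204, edgeR). Every 12-week library stood above those at 0d. Ndufa4l2 rose from 5.78 to 8.16 CPM to 7.95 to 14.02 (log2 change 0.66, adjusted p = 0.00273, edgeR) with overlap of the groups, and Cox6b2 fell from 5.44 to 6.77 CPM to 1.61 to 3.07 (log2 change -1.47, adjusted p = 0.000139, edgeR) without it. Of the mitochondrial mRNAs mt-Nd4 rose by 0.22 (adjusted p = 0.0399, edgeR). Ppargc1a fell by 1.86, from a median of 192.9 to 57.6 CPM, and the orphan receptor Esrrb rose by 2.04. Of the macrophage markers 7 of 9 rose (97.3 to 300.4 and 196.3 to 412.4 CPM in sum).

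The counts in BAT depended on single libraries. At 2 weeks 77 nuclear members were higher and none lower (19.0% and 9.92% of all genes), and at 3 weeks 72 were higher and none lower (16.5% and 10.8%). Without the 1 library per time point that correlated least with its group (replicate 6 at 2 weeks, replicate 1 at 3 weeks) the counts were 16 and 33, and the 2-week median went from 1.13 to 0.15. At 12 weeks the count of lower members went from 1 to 29 when replicate 6 of 0d, replicate 1 of 12 weeks and the least correlated libraries of the other time points were left out. No share of all genes is given for the fits without those libraries. At 1 week 5 were higher and none lower with all libraries (8.46% and 7.28%), and 22 were higher without those libraries.

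The difference between depots was tested itself, with the libraries of the depots treated as independent, although they may come from the same mice. The 12-week change was lower in eWAT than in iWAT for 7 of 83 nuclear members and higher for none (20.4% and 19.0% of 15637 genes), and lower than in BAT for 11 and higher for none (20.2% and 19.6% of 15359 genes). At an unadjusted p under 0.05 edgeR put 0 members higher than in iWAT and 1 higher than in BAT, and no share of all genes is given at that threshold. Ndufa4l2 differed by -2.25 from iWAT (adjusted p = 6.38e-07, edgeR interaction) and by -1.72 from BAT (adjusted p = 9.78e-09), and Sdha by -0.58 (adjusted p = 0.00774) and -0.73 (adjusted p = 1.78e-07). Cox4i2, Atp5b, Ndufv1 and Uqcrc1 were among the lower members in both comparisons, which share the eWAT libraries. Of the mitochondrial mRNAs mt-Cytb, mt-Nd4, mt-Nd5 and mt-Nd6 were lower than in iWAT, by 0.93 to 1.13.

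In liver the shares of members called were near those of all genes. At 12 weeks 13 of 79 nuclear members rose and 17 fell, against 20.6% and 21.4% of 12592 genes, with a median of -0.01. Library totals in place of TMM gave 30 higher and 6 lower, and the change of all genes was then higher by a median of 0.09. Ndufa10, a complex I subunit, had 120.2 to 137.8 CPM at 0d and 165.5 to 177.2 at 12 weeks (log2 change 0.40, SE 0.05, adjusted p = 1.79e-09, edgeR). Ndufa8 rose from 55.2 to 71.2 CPM to 74.96 to 85.7 (log2 change 0.40) and Ndufs5 from 41.9 to 52.4 to 53.8 to 64.1 (log2 change 0.30). The 12-week libraries of these 3 genes stood above all those at 0d. Ndufb5 fell by 0.28, from 72.7 to 86.1 CPM to 61.1 to 69.2 (adjusted p = 6.34e-06, edgeR); it shares 158 exonic bases with Mrpl47, which also fell, by 0.45. Atp5g1, one of the genes of the c ring of the ATP synthase, fell by 0.29. Atp5g1 and Ndufs5 each have a nearly identical processed pseudogene, so their values are uncertain.

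Among the mitochondrial mRNAs of liver, 5 fell. mt-Nd2 had 6630 to 7356 CPM at 0d and 5139 to 5942 at 12 weeks (log2 change -0.29, adjusted p = 1.81e-05, edgeR), and mt-Nd5, mt-Nd1, mt-Nd6 and mt-Co1 fell by 0.25, 0.19, 0.18 and 0.17. Of the citrate cycle 8 of 16 rose and 2 fell, led by Suclg2 at 0.53, Cs, the citrate synthase, at 0.45 and Mdh2 at 0.37. Of the mitochondrial ribosome 20 of 77 rose and 6 fell, while 56 of 76 genes of the cytosolic ribosome fell and 1 rose. Of the factors for mitochondrial RNA and DNA 9 of 23 fell, with Lrpprc, which stabilises mitochondrial mRNA, at -0.42. The low point of the nuclear members was at 10 days, when 36 fell and none rose (6.04% and 5.13% of all genes); Ndufb8 fell by 0.34 then (adjusted p = 4.2e-05, edgeR). At 1 week 13 fell and none rose (5.55% and 5.19%), and 6 fell without the least correlated libraries, replicate 3 of 1 week among them. Hepatocyte markers summed to 82690 to 96400 CPM at 0d and 74510 to 87690 at 12 weeks.

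Small intestine had the opposite pattern in its 2 genomes. At 12 weeks 25 of 82 nuclear members rose and 7 fell (19.8% and 19.1% of 14345 genes), and 6 mitochondrial mRNAs fell. Library totals in place of TMM gave 46 higher and 2 lower. The change of all genes was then higher by a median of 0.08, beside a nuclear median of 0.05 by TMM. Ndufs7, an iron-sulfur subunit of complex I, had 58.2 to 76.6 CPM at 0d and 81.5 to 89.5 at 12 weeks (log2 change 0.38, SE 0.05, adjusted p = 5.59e-09, edgeR) and was called higher at all 13 time points. Uqcrq, a small subunit of complex III, rose from 118.3 to 142.6 CPM to 168.5 to 187.0 (log2 change 0.36, adjusted p = 9.63e-10, edgeR), and Cox6a1 from 236.0 to 292.5 to 319.4 to 345.0 (log2 change 0.26). None of the 3 genes had overlapping groups. Ndufb3 fell from 65.5 to 70.8 CPM to 57.0 to 60.7 (log2 change -0.22, adjusted p = 0.000903, edgeR), and Atp5md and Atp5mpl, small proteins of the ATP synthase, by 0.21 and 0.18.

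The rise in small intestine was widest on the first day, with 70 nuclear members higher and none lower (12.1% and 11.4% of all genes) and a median of 0.24. Atp5k, the e subunit of the ATP synthase, had 44.7 to 68.0 CPM at 0d and 75.4 to 91.9 at 1 day (log2 change 0.57, adjusted p = 1.5e-07, edgeR); at 12 weeks its change was 0.11 (adjusted p = 0.314). At 1 week 41 were higher and 1 lower (13.5% and 13.6%). The mitochondrial changes at 12 weeks were small: mt-Nd5 fell by 0.22, mt-Cytb and mt-Nd6 by 0.20, mt-Nd2 by 0.15 and mt-Co1 by 0.11, and mt-Co2, with its nuclear copy, by 1.20. Of the mitochondrial ribosome 31 of 77 rose and 4 fell, with Mrpl38 at 0.70, and of the factors for mitochondrial RNA and DNA 7 of 23 rose and 2 fell, among them Polrmt, the mitochondrial RNA polymerase, at 0.33. Ppargc1a fell by 0.65 (adjusted p = 2.62e-10, edgeR) and Pprc1, a related coactivator, rose by 0.73. The 6 acinar cell markers of the pancreas all fell in these libraries, from a sum of 5334 to 14360 CPM at 0d to 102.2 to 2168 at 12 weeks, while enterocyte markers summed to 29220 to 36650 and 36920 to 39800 CPM; their part in the members' changes was not tested.

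In pancreas 5 of 77 nuclear members fell at 12 weeks and none rose (3.05% and 2.85% of 12391 genes; 13 and 2 at an unadjusted p under 0.05, edgeR), with a median of -0.16; by library totals 34 fell and 1 rose, and the median of all genes was lower by 0.15. Sdhb, the iron-sulfur subunit of succinate dehydrogenase, had 38.2 to 52.3 CPM at 0d and 31.3 to 35.3 at 12 weeks (log2 change -0.49, adjusted p = 0.0367, edgeR), with no overlap, and Sdha fell by 0.25. Uqcrq fell by 0.69, from 36.6 to 72.2 CPM to 26.1 to 35.8 (adjusted p = 0.0353, edgeR). mt-Nd2 rose by 0.38 (adjusted p = 0.0114, edgeR). Without the least correlated libraries, replicate 6 of 0d and replicate 2 of 12 weeks among them, 12 fell and 2 rose. At 1 week edgeR called no nuclear member (0.0726% of all genes rose and 0.121% fell), and 7 were higher and 0 lower at an unadjusted p under 0.05. The shares of all genes in pancreas are by the adjusted p, and none is given at an unadjusted p. Islet markers summed to 451.3 to 913.8 CPM at 0d and 1266 to 2725 at 12 weeks, and acinar markers to 283100 to 431000 and 332800 to 473100.

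In the muscles no nuclear member was called at 12 weeks by edgeR or DESeq2 in soleus (2.19% of 13090 genes rose and 1.69% fell) or gastrocnemius (2.4% and 3.54% of 13104); at an unadjusted p under 0.05 edgeR called 1 lower in soleus and 0 in gastrocnemius. In soleus the spread between libraries was wide: Cox6a2 had 704.5 to 26280 CPM at 0d (median 1269) and 716.2 to 5811 at 12 weeks (median 1324), a fitted log2 change of -1.46 (adjusted p = 0.61, edgeR). Sdha, with a longer transcript, had 359.7 to 1011 CPM at 0d and 859.5 to 967.1 at 12 weeks. The spread of a gene was estimated over all time points of a muscle, so wide groups at other times enter the 12-week tests. Over all time points together edgeR called 0 of 83 nuclear members in soleus (6.75% of all genes) and 75 of 82 in gastrocnemius (37.1%). At an unadjusted p under 0.05 edgeR gave 58 of 83 in soleus. The share of all genes at an unadjusted p is not given here, so the 58 cannot be set against the 6.75%. The 12-week change did not pass the test of a difference between the muscles for any nuclear member (0.185% of genes higher and 0.163% lower; 2 members lower at an unadjusted p under 0.05, edgeR).

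Of the 13 mitochondrial mRNAs 2 rose in gastrocnemius, mt-Nd6 and mt-Nd5, and none fell. mt-Nd6 had 3322 to 3814 CPM at 0d (median 3584) and 4882 to 6037 at 12 weeks (median 5262), a log2 change of 0.59 (SE 0.11, adjusted p = 0.000157, edgeR). mt-Nd5 went from 10360 to 11890 CPM to 14050 to 18050 (log2 change 0.47, SE 0.10, adjusted p = 0.000445, edgeR). The 12-week libraries stood above all 0d libraries for each of the 7 mitochondrial mRNAs. Of these, mt-Nd4 with 0.74 (adjusted p = 0.068), mt-Nd2 with 0.75 (adjusted p = 0.079) and mt-Co1 with 0.62 (adjusted p = 0.24) did not pass the edgeR test. The 7 were measured in the same libraries and are not independent, and the share of all genes that separated in this way is not given here. The share of counts in the 13 mRNAs was 8.88% to 9.69% at 0d, 10.1% to 12.9% at 3 days and 12.8% to 17.5% at 12 weeks, and every library from 3 days on lay above every 0d library. In soleus it was 12.4% to 21.1% at 0d and 17.96% to 25.3% at 12 weeks. The nuclear members took 1.83% to 1.92% in gastrocnemius at 0d and 1.94% to 2.6% at 12 weeks.

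Other time points of gastrocnemius carried many calls of nuclear members: 73 were higher at 2 weeks (14.4% of all genes rose and 8.27% fell), 79 at 3 weeks (24.6% and 15.6%) and 75 at 10 weeks (16.9% and 14.3%), and none was lower. Without the library that correlated least with its group (replicate 6, replicate 3 and replicate 4 of these, and 1 at each other time) the counts were 0, 74 and 23. Of the assembly factors 4 of 45 rose at 12 weeks, with the copper chaperone Sco1 at 0.39, and Esrrb rose by 0.67 in gastrocnemius and 0.71 in soleus. Slow muscle markers summed to 780.9 to 1321 CPM in gastrocnemius at 0d and 530.3 to 1085 at 12 weeks.

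In hippocampus 61 of 83 nuclear members fell at 12 weeks and 1 rose, against 12.4% and 13.2% of 14850 genes. The changes were small, with a median of -0.18. They held all 4 members of complex II, 25 of 36 of complex I, 7 of 8 of complex III, 11 of 18 of complex IV and 14 of 17 of complex V. Ndufb9 had 55.0 to 64.7 CPM at 0d (median 61.3) and 46.1 to 53.95 at 12 weeks (median 48.3), a log2 change of -0.31 (SE 0.05, adjusted p = 8.27e-06, edgeR). Cox6b1, a subunit at the outer face of complex IV, fell from 120.9 to 138.5 CPM to 105.5 to 116.5 (log2 change -0.26, adjusted p = 4.55e-07, edgeR). Neither gene had overlapping groups, and the value of Ndufb9 is uncertain here too because of its identical stretch in Gm49356. Sdhc fell by 0.26, Sdhb by 0.16, Sdhd by 0.12 and Sdha by 0.06. Ndufb2 rose, from 18.3 to 25.7 CPM to 25.65 to 29.6 (log2 change 0.30, adjusted p = 0.00272, edgeR); its groups overlapped, and it shares 146 exonic bases with Braf.

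The change in hippocampus came late, since the nuclear medians of the time points before 10 weeks lay between -0.02 and 0.04. At 10 weeks 27 fell and 1 rose (5.52% and 7.06% of all genes). Of 12 tested mitochondrial mRNAs 5 rose at 12 weeks and none fell, 3 of them among the 7 without a full nuclear copy. mt-Nd5 rose from 3083 to 3837 CPM to 4144 to 5033 (log2 change 0.37, adjusted p = 1.06e-08, edgeR), mt-Nd2 by 0.18 and mt-Co1 by 0.11, while mt-Cytb at 0.01 (adjusted p = 0.872, edgeR) and mt-Nd6 at -0.10 (adjusted p = 0.215) did not pass. Of the cytosolic ribosome 55 of 78 fell and none rose, of the mitochondrial ribosome 25 of 77 fell and 1 rose, and of the citrate cycle 8 of 16 fell, with Mdh2 at -0.19. With an offset for transcript length 31 nuclear members fell in place of 61, and the share of all genes with it is not given here. The 3 oligodendrocyte markers fell (4483 to 5844 and 2951 to 3228 CPM in sum) and the neuronal markers summed to 3248 to 3750 and 3357 to 3835 CPM; their part was not tested.

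In neocortex 39 of 82 nuclear members fell at 12 weeks and 5 rose (11.8% and 13.3% of 14851 genes). The low level was there from the first day, when 28 fell and none rose (2.48% and 2.78%), and at 1 week 41 fell and none rose (4.25% and 4.8%); the nuclear median lay between -0.17 and -0.10 at all 13 time points. Atp5k had 36.6 to 47.8 CPM at 0d, 18.9 to 24.95 at 1 day and from 17.99 up, with a median of 20.9, at 12 weeks, and all 6 libraries at 0d stood above those of both later times. Its log2 change at 12 weeks was -0.95 (SE 0.08, adjusted p = 3.83e-16, edgeR) and ran from -1.08 to -0.76 over the 13 time points, all of which share the 0d libraries. Atp5o, the OSCP subunit of the ATP synthase stalk, fell from 31.9 to 37.2 CPM to 22.5 to 24.0 (log2 change -0.57, adjusted p = 2.1e-12, edgeR). Ndufb1-ps fell by 0.64 and shares 147 exonic bases with Cpsf2. Among the 5 that rose was Atp5a1, the alpha subunit of the ATP synthase, at 0.11 (adjusted p = 7.86e-05, edgeR).

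The change of a member in neocortex went with its transcript length, with a Spearman correlation across members of 0.59 to 0.69 over the time points; members are not independent replicates. With an offset for length 25 members fell in place of 39, and the share of all genes with it is not given here. Of the cytosolic ribosome 34 of 78 fell and 2 rose, with Rps29 at -0.82. The mitochondrial mRNAs fell as well: mt-Nd6, encoded on the light strand, had 1660 to 1898 CPM at 0d and 1156 to 1348 at 12 weeks (log2 change -0.52, SE 0.04, adjusted p = 5.27e-17, edgeR), with -0.16 at 1 day, -0.30 at 2 weeks and -0.50 at 10 weeks. mt-Nd5 and mt-Cytb fell by 0.31 at 12 weeks, mt-Nd4 by 0.29, mt-Nd1 by 0.24 and mt-Nd2 by 0.17. Oligodendrocyte markers fell here as well (4217 to 4898 and 3477 to 3823 CPM in sum).

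Olfactory bulb rose where hippocampus and neocortex fell: 25 of 82 nuclear members were higher and 1 lower at 12 weeks (10.8% and 9.99% of 14935 genes), 15 of the 25 in complex I. With an offset for transcript length 17 were higher and 4 lower, and with offsets for length and GC 13 were higher and 3 lower. The shares of all genes with them are not given here. Atp5d, the delta subunit of the ATP synthase, had 130.6 to 140.3 CPM at 0d and 156.6 to 169.6 at 12 weeks (log2 change 0.27, SE 0.04, adjusted p = 1.75e-08, edgeR). Ndufb8 rose from 30.6 to 36.9 CPM to 38.1 to 47.2 (log2 change 0.28, adjusted p = 0.000393, edgeR), and neither gene's groups overlapped. Ndufs1, the largest subunit of complex I, fell by 0.11 (adjusted p = 0.0115, edgeR). At 4 weeks 45 were higher and 2 lower (22.1% and 17.8%). mt-Nd6 fell by 0.23, mt-Nd4 by 0.18, mt-Nd5 by 0.13 and mt-Cytb by 0.12, while 29 of 78 genes of the cytosolic ribosome rose and none fell. The difference between brain regions was not tested.

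In hypothalamus 2 of 82 nuclear members rose and 1 fell (3.09% and 3.71% of 15027 genes). Ndufb2 had 25.6 to 28.97 CPM at 0d and 31.5 to 36.9 at 12 weeks, a log2 change of 0.32 with no overlap, Ndufa5 rose by 0.18 and Uqcr11, a small subunit of complex III, fell by 0.15. The nuclear median stayed between 0.00 and 0.08 at all 13 time points.

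In pituitary 9 of 81 nuclear members rose and 5 fell at 12 weeks (23.2% and 22.4% of 15086 genes). By library totals 45 rose and 3 fell, and the change of all genes was then higher by a median of 0.09, beside a nuclear median of 0.06 by TMM. With an offset for transcript length 27 rose and 5 fell, and with offsets for length and GC 29 rose and 7 fell. The shares of all genes with these offsets are not given here. Atp5b had 387.5 to 426.4 CPM at 0d and 456.4 to 503.7 at 12 weeks (log2 change 0.22, adjusted p = 2.27e-06, edgeR), and Sdha 282.5 to 299.4 and 312.4 to 340.2 (log2 change 0.16). Both genes were higher in all 12-week libraries than in any 0d library. Cox7a2l, a factor that joins complexes III and IV, fell from 184.9 to 218.0 CPM to 165.5 to 175.7 (log2 change -0.24, adjusted p = 0.000706, edgeR); a processed pseudogene is identical to part of it, so its value is uncertain. mt-Nd6 fell by 0.34, from 874.7 to 1021 CPM to 682.5 to 792.8, and mt-Nd5, mt-Nd4 and mt-Nd1 by 0.26, 0.19 and 0.18. At 3 weeks 39 were higher and none lower (20.0% and 20.3%), and 59 were higher without the least correlated libraries, replicate 1 of 3 weeks and replicate 2 of 0d among them. The summed pituitary hormone markers were 185600 to 222000 CPM at 0d and 112900 to 134500 at 12 weeks, when Lhb was at 0.

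Across organs, the share of members called in both directions was near that of all genes, without matching for the organs tested. At 12 weeks 82 of the 83 nuclear members tested in any organ were called in at least 1 (98.8%, against 90% of 17399 genes). Of these members 40 were called in both directions (48.2%, against 49.1%) and 42 in 1 direction (50.6%, against 40.9%). A gene tested in fewer organs has fewer chances of a call, so these shares cannot show whether members differ from other genes. Of the 17399 genes 12391 were tested in pancreas, while 77 of the members were tested in all organs. Cox8b was tested and called in none, and Cox7b2 and Cox8c were not tested. Atp5b rose in BAT, neocortex, olfactory bulb and pituitary and fell in eWAT, liver and hippocampus. Uqcrq rose in liver, small intestine, olfactory bulb and pituitary and fell in eWAT, pancreas, hippocampus and neocortex. Ndufv3 fell in eWAT, liver, hippocampus, neocortex and pituitary and rose in none, Sdhb and Uqcrh each fell in 4 organs, and Ndufb2 rose in 3. mt-Nd5 and mt-Nd6 fell in the same 6 organs (eWAT, liver, small intestine, neocortex, olfactory bulb and pituitary). Both rose in gastrocnemius, and mt-Nd5 in hippocampus as well. These genes overlap on opposite strands, and whether reads of mt-Nd5 were counted for mt-Nd6 was not tested. mt-Cytb and mt-Nd1 each fell in 4 organs and rose in none.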

How the data were processed

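Gene counts of 1104 libraries were used as deposited: per the submitters' processing notes, the authors used featureCounts 1.6.3, HISAT2 2.1.0, Trimmomatic 0.38, FastQC 0.11.7 and SAMtools 1.9 with GRCm38. The annotation is not given in the sources used here, nor are the strand setting and the treatment of reads with several matches. The kit was strand-specific, per the labels' protocols. All 1104 columns matched a label.

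Each organ was fitted alone with edgeR 4.0.16 in R 4.3.3 (quasi-likelihood F test, TMM scaling, its default filter on low counts, 1 coefficient per time point), Benjamini-Hochberg adjusted over all genes tested; a gene was called at an adjusted p under 0.05. CPM are counts scaled by the TMM-adjusted library size, and ranges are over 6 libraries. The levels per kb at 0d are scaled by library totals without TMM. A library index is the median over members of log2 CPM with a prior count of 2. The p-values rest on the spread between the 6 mice within groups, 1 library each, at the depths given. This spread was estimated per gene over all time points of an organ, so a wide group enters the tests of other times. Cox8b in BAT had an SE of 0.38 at 12 weeks (815.8 to 1040 CPM) and 0.39 at 2 weeks (1007 to 13730 CPM). No 2 libraries of a group held identical counts, and every pair differed by more than sampling noise. Transcript lengths are the median over coding transcripts of GENCODE M21 (GRCm38), which held 20606 of 20646 symbols and 98 of 98 members. Copies were found with BLAST 2.17.0 (at least 98% identity over 200 bases), and promoters are from RefSeq.

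Named were, by rule, complex II, the isoform pairs, subunit c and the mitochondrial mRNAs; per organ the 3 highest and 3 lowest nuclear changes with a mean of at least 5 CPM; the members called in most organs; the smallest p of each companion list; and the smallest interaction p. Ndufv1, Uqcrc1, Uqcrfs1, Atp5k at 1 day and Itgad were chosen after their values were seen. The members and lists were chosen with earlier results of these data known.

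Replicate numbers did not pair libraries of an organ, since each time point has its own mice. Libraries of different organs at a time point may come from the same mice, but the interaction tests treated them as independent. Same-numbered eWAT and iWAT libraries correlated from -0.614 to 0.564, with 31 of 84 pairs above 0.1. The companion lists were assembly factors, regulators, mitochondrial RNA and DNA upkeep, mitochondrial ribosome, citrate cycle and cytosolic ribosome. Alternatives were DESeq2 1.42.0, RLE size factors, library totals, scaling without the mitochondrial rows, no filter and a replicate block. Offsets for length or for length and GC content (spline, 5 degrees of freedom) were also fitted. A further alternative left out, at each time point, the library that correlated least with its group. The shares of all genes printed belong to the main fit, and none is given for these alternatives. The fits were tested on simulated data with 200 changed genes. In eWAT 70.0% of the 2-fold and 38.6% of the 1.5-fold changes were recovered, and in soleus 38.6% and 14.8%. The interaction of eWAT and iWAT recovered 31.5% and 7.0%, that of eWAT and BAT 52.1% and 19.3%, and that of the muscles 38.6% and 11.5%. Of the calls, 3.82% in eWAT and 6.98% in soleus were false, and 7.89%, 2.8% and 9.28% in these interactions.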

Additional observations from a re-analysis of the deposited data

Results flagged for a closer look

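In the groups at 0d and 12 weeks 5 values of 4 libraries stood apart from those of the other 5 libraries of their group, by a gap test that flags about 1 in 20 groups by chance; 54 group values were tested. In eWAT at 0d replicate 3 had 5.76% of its counts in mitochondrial mRNAs, against 4.23% to 4.46% in the others, so the lower share at 12 weeks does not rest on it. In iWAT at 0d replicate 6 had 6.89%, against 4.09% to 4.82%. In soleus at 0d replicate 1 had 12.0% of its counts in nuclear members, against 3.10% to 6.41%, and it raises the 0d level that all soleus comparisons share. In gastrocnemius at 12 weeks replicate 2 had 2.6% in nuclear members, against 1.94% to 2.19%, and 17.5% in mitochondrial mRNAs, against 12.8% to 13.8%.

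The change at 12 weeks differed by a test of the interaction for 7 of 83 nuclear members between eWAT and iWAT and for 11 of 83 between eWAT and BAT, all lower in eWAT, where 20.4% and 20.2% of all genes were lower.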

How the results depend on the processing

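RLE size factors and scaling without the mitochondrial rows moved no count of called members beyond 1.5 times; the replicate block moved 1, the mitochondrial mRNAs of gastrocnemius, from 2 to 4, although the numbers do not pair libraries (in no organ did every pair of same-numbered libraries correlate above 0.1). Over members named by organ, 534 results were the same and 3 weaker with RLE factors, 518 the same, 1 stronger and 1 weaker with DESeq2, and 458 the same, 34 stronger, 36 weaker and 9 reversed with offsets for length and GC. DESeq2 gave 2 mitochondrial mRNAs in iWAT in place of 1.

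Offsets for length gave in BAT 4 higher and 9 lower, in iWAT 3 higher, in pancreas 2 higher and 11 lower, in small intestine 4 lower, in soleus 1 lower, in hippocampus 31 lower, in neocortex 25 lower, in olfactory bulb 4 lower and in pituitary 27 higher. Offsets for length and GC gave in BAT 8 lower, in iWAT 2 higher and 2 lower, in liver 30 lower, in pancreas 2 higher and 8 lower, in small intestine 2 lower, in soleus 1 lower, in hippocampus 33 lower, in hypothalamus 0 lower, in olfactory bulb 13 higher, 3 lower and 2 mitochondrial mRNAs, and in pituitary 29 higher. The interactions then gave 19 lower in eWAT than in iWAT and 20 lower than in BAT, and the shares of all genes with these offsets are not given here. Reversed were Cox4i1 (-0.047) and Ndufa4 (0.13) in liver, Atp5md (0.037) and Ndufa4 (0.18) in small intestine, Cox4i1 (-0.039) and Cox8a (-0.012) in olfactory bulb, and Atp5e (0.00037), Atp5g2 (0.16) and Sdhb (0.16) in pituitary; the cause was not tested.

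Library totals alone gave in BAT 6 higher and 2 lower, in iWAT 5 lower and 2 mitochondrial mRNAs, in liver 30 higher, 6 lower and 2 mitochondrial mRNAs, in pancreas 1 higher and 34 lower, in small intestine 46 higher, 2 lower and 3 mitochondrial mRNAs, in soleus 1 lower, in gastrocnemius 6 mitochondrial mRNAs, in neocortex 3 higher, in olfactory bulb 3 lower, and in pituitary 45 higher, 3 lower and 3 mitochondrial mRNAs. By library totals the change of all genes moved by a median of 0.09 in liver and pituitary, 0.08 in small intestine, -0.15 in pancreas and -0.20 in iWAT. Without the filter BAT had 0 mitochondrial mRNAs, liver 3, and neocortex 3 higher.

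When the library that correlated least with its group was left out at each time point, at 12 weeks BAT had 29 lower, iWAT 2 lower and 3 mitochondrial mRNAs, pancreas 2 higher and 12 lower, soleus 2 and gastrocnemius 4 mitochondrial mRNAs, neocortex 2 higher, olfactory bulb 4 lower, and pituitary 17 higher and 3 lower. At other times, where this was added after the data were seen, BAT had 22 higher at 1 week, 16 at 2 weeks and 33 at 3 weeks, gastrocnemius 0 at 2 weeks and 23 at 10 weeks, eWAT 1 higher and 8 lower at 1 week, 8 higher at 2 weeks and 2 at 8 weeks, iWAT 0 higher at 1 week, small intestine 2 lower at 1 week, liver 6 lower at 1 week and 2 higher at 10 days, pancreas 1 lower at 1 week, hippocampus 0 higher at 10 weeks, and pituitary 59 higher at 3 weeks.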
